A study of Arabidopsis thaliana with 6 samples.

Results

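The extensin genes described here are the gene models of the array whose descriptive text contains the word extensin and names neither a transposon nor a pseudogene. The rule found 5 of the 30361 gene models, and the text of no other model contained the word. They are LRX1 (AT1G12040), ELP (AT1G12090), EXT3 (AT1G21310), LRX2 (AT1G62440) and EXT4 (AT1G76930), and all 5 lie on chromosome 1. Their levels were measured in young leaves of untreated Arabidopsis thaliana plants that had spent 4 weeks on soil under long days. RNA of 3 genotypes, wild type Col-0, the kyp mutant and the cmt3 mutant, was labelled with Cy3 and hybridised to NimbleGen arrays, with 2 arrays for each genotype. KYP, also named SUVH4, is a histone methyltransferase for H3K9, and CMT3 is a DNA methyltransferase for CHG sites. The comparisons ask which genes differ in leaves of plants mutant in one or the other. The labels name neither the mutant alleles nor the background of the mutants, and they do not say whether the arrays of a genotype come from separate plants. The p-values thus rest on the spread of these arrays alone, part or all of which may be technical.

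Extensins are hydroxyproline-rich glycoproteins of the plant cell wall. Prolines that follow a serine are hydroxylated and carry chains of arabinose, and tyrosines are cross-linked, so that the proteins form a network that stiffens the wall. The leucine-rich repeat extensins, or LRX proteins, join a repeat domain to an extensin domain that anchors in the wall, and several of them bind RALF peptides. LRX1 and LRX2 are known for their joint role in shaping the wall of root hairs. EXT3 is the scaffold extensin that is needed for a correct cell plate in the embryo, which gave it the name ROOT-SHOOT-HYPOCOTYL DEFECTIVE. EXT4, which RefSeq also lists as EXT1, is a classical extensin known to respond to wounding. ELP is extensin-like by name, and the array files describe it as lipid binding.

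The arrays resembled each other in general. Array medians lay between 946 and 997 in intensity, and Pearson's r across genes was 0.986 to 0.987 within a genotype and 0.968 to 0.988 between genotypes. By the image names, slide 1 carried the wild type arrays with kyp replicate 1, and slide 2 carried the cmt3 arrays with kyp replicate 2. CMT3 intensity was 6239 and 6180 in wild type, 7079 and 6650 in kyp, and 1958 and 2005 in cmt3. KYP intensity lay between 964 and 1314 on all arrays, and the files do not give the position of its probes, so this level does not check the kyp label. The 8 markers of leaf mesophyll summed to intensities between 427313 and 441753 on the 6 arrays. Of 9 root and root hair markers, 5 lay in the lowest 25% of intensities on every array, as did 3 of 4 pollen markers. In whole leaves, fewer cells of a type and less RNA per cell cannot be told apart.

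One extensin gene separated the 3 genotypes. LRX2 was high in wild type, intermediate in kyp and low in cmt3, and the arrays of the 3 genotypes did not overlap. LRX2 intensity was 27150 and 23382 on the wild type arrays, 9441 and 5684 on the kyp arrays, and 1439 and 721 on the cmt3 arrays. From the highest to the lowest array the gene spanned 37.6-fold, against 1.72-fold to 4.30-fold for the other members. The 2 arrays of a genotype differed by 1.16-fold in wild type, 1.66-fold in kyp and 1.996-fold in cmt3. The nearest wild type and kyp arrays were at 23382 and 9441, and the nearest kyp and cmt3 arrays at 5684 and 1439. The share of all gene models that separate the genotypes in this order was not counted. The order was not confined to LRX2. EXT-like (AT4G26750), an extensin by its RefSeq name but not by the text of the array files, showed it without overlap and with smaller steps. Its intensity was 38173 and 35290.5 in wild type, 32809 and 30498.6 in kyp, and 24037.1 and 22117.2 in cmt3.

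**Figure D1:**
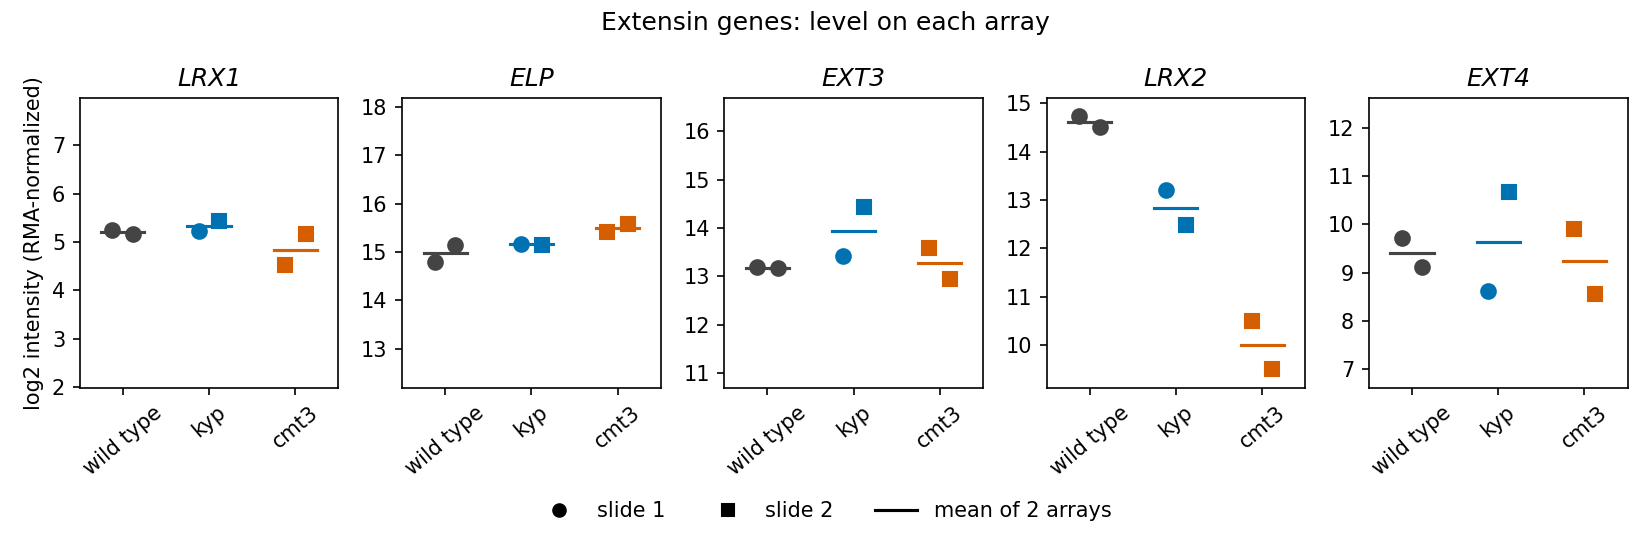
Level of the 5 extensin genes on each of the 6 arrays, as log2 of the RMA-normalized intensity, by genotype. Circles are arrays of slide 1, squares arrays of slide 2 and lines the mean of 2 arrays, and every panel spans the same number of log2 units. LRX2 steps down from 14.62 in wild type to 12.84 in kyp and 9.99 in cmt3, while the other members stay within a narrower range.

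In cmt3, LRX2 fell 24.7-fold against wild type. The mean log2 level was 9.99 ± 0.70 (SD, n = 2) in cmt3, against 14.62 ± 0.15 in wild type, which makes a difference of -4.63 ± 0.43 (SE, adjusted p = 0.0416, limma). It was the 1 member of 5 called lower, while 0.181% of all gene models were called lower and 0.741% were called in either direction. Only 13 of the 30361 gene models had a more negative difference in this comparison. By a rule without a test, which asks that the arrays of 2 genotypes do not overlap and that their means differ at least 2-fold, LRX2 was again the 1 member that was lower, beside 5.18% of all models. The call did not survive every setting. It ended with the slide as a block (-3.90, adjusted p = 0.474), under robust moderation of the variance (adjusted p = 0.0523) and without any 1 of the 6 arrays (differences of -4.13 to -5.13, adjusted p = 0.0609 to 0.209). No slide holds both wild type and cmt3, so the value with the slide as a block rests on the difference between the 2 kyp arrays.

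In kyp, LRX2 stood 3.44-fold below wild type, with a mean log2 level of 12.84 ± 0.52 (SD, n = 2). This difference of -1.78 ± 0.43 (SE) did not pass the test (adjusted p = 0.371, limma). None of the 5 members was called in kyp, where 0.105% of all models were called in either direction. At an unadjusted p under 0.05, LRX2 was the 1 member that passed, along with 3104 (10.2%) of all models. LRX2 was also the 1 member 2-fold lower without overlap, beside 2.36% of all models. Within slide 1, the kyp array lay 2.67-fold below the mean of the wild type arrays (adjusted p = 0.628 with 1 kyp array).

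Between the mutants, LRX2 stood 7.19-fold higher in kyp than in cmt3 (2.85 ± 0.43 SE, adjusted p = 0.291, limma), so the difference between the mutants did not pass the test. None of the 5 members was called here, where 0.0296% of all models were called, and LRX2 was the 1 member with an unadjusted p under 0.05, beside 12.5% of all models. It was the 1 member 2-fold higher in kyp without overlap, beside 3% of all models. Within slide 2, the kyp array lay 5.58-fold above the mean of the cmt3 arrays (adjusted p = 0.769 with 1 kyp array). The LRX2 values also separate the slides, since the 3 arrays of slide 1 lay at 9441 and above and the 3 arrays of slide 2 at 5684 and below. Of all gene models, 2.68% were likewise lower on slide 2 without overlap and with means at least 2-fold apart. The part of the slide in the LRX2 values was not tested beyond the values within each slide and the block.

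LRX2 spans 23115483 to 23118958 on chromosome 1 by the coordinates in the array files, which are marked Release 6. It lies 3.13 Mb from CMT3, the mutated gene of the cmt3 plants, which is on the same chromosome. The 5 gene models on either side of LRX2, between 23087975 and 23137167, were read for comparison. None of these 10 was called in any of the comparisons (limma), while 3 in kyp, 3 in cmt3 and 4 for kyp against cmt3 had an unadjusted p under 0.05. Over all models these shares were 10.2%, 23% and 12.5%. Their differences ran from -1.05 to 1.99 in cmt3 against wild type, where AT1G62490 was highest, and from -2.504 to 1.93 in kyp against wild type. The most negative neighbour in cmt3 was AT1G62420 of unknown function, at -1.05 (adjusted p = 0.119, limma), and in kyp it was AT1G62410, annotated as a translation initiation factor, at -2.504 (adjusted p = 0.376). HT1 (AT1G62400) had the smallest p of the 10 in cmt3, at -0.60 (adjusted p = 0.086, limma). HT1 intensity was 1211 and 1280 in wild type, 1023 and 1032 in kyp, and 801 and 837 in cmt3. These are the genotype order of LRX2, without overlap and with smaller steps. The gene next to LRX2 on the side of lower coordinates, CDS1, a CDP-diacylglycerol synthase gene, stood at -0.15 in cmt3 (adjusted p = 0.405). None of the neighbours therefore showed a difference in cmt3 of the size of that of LRX2. In kyp, AT1G62410 fell further than LRX2 (-1.78). By the rule of 2-fold difference without overlap, AT1G62410 and AT1G62500 were lower in kyp, beside 2.36% of all models. In cmt3, AT1G62420 was lower by this rule, and AT1G62460 and AT1G62490 were higher, beside 5.18% and 4.09% of all models.

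**Figure D2:**
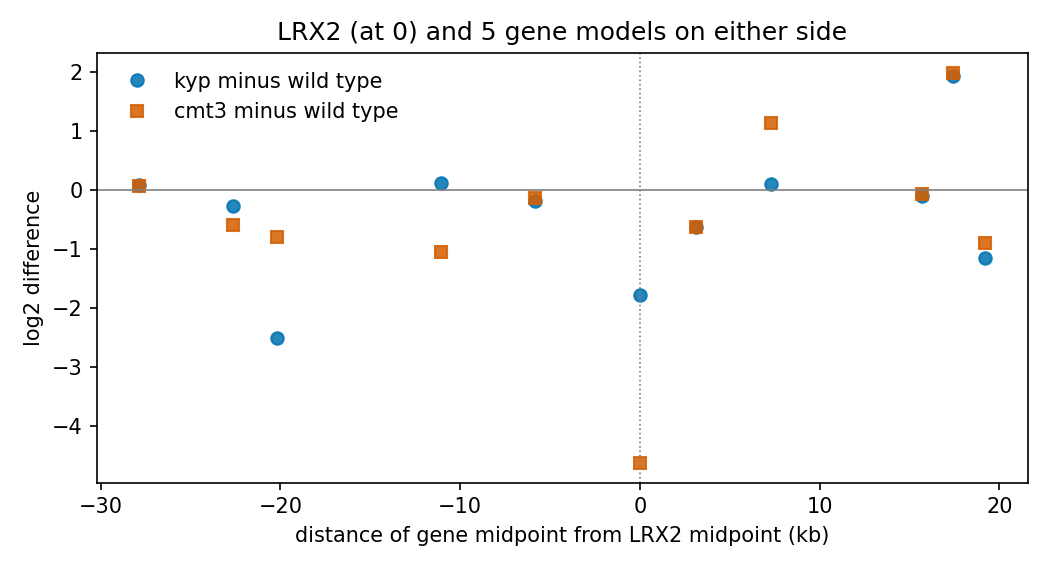
Difference from wild type, in log2 units, of LRX2 and of 5 gene models on either side of it, by the distance of each midpoint from that of LRX2 in kb. Circles give kyp and squares give cmt3. LRX2, at distance 0, stands at -4.63 in cmt3, below all neighbours.

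The gene model nearest to LRX2 whose text names a transposon is AT1G62460, a copia-like element that begins 3363 bases beyond the end of LRX2. Its intensity was 36.3 and 59.0 in wild type, 63.8 and 38.3 in kyp, and 100.4 and 101.4 in cmt3. Both cmt3 arrays were thus above the others, but the difference of 1.13 ± 0.35 (SE) between cmt3 and wild type did not pass (adjusted p = 0.173, limma). On 4 of the 6 arrays this model lay in the lowest 25% of intensities. The files assign it to a second locus on another chromosome as well, so its signal cannot be given to the copy beside LRX2 alone. EXT3 has a copia-like model, AT1G21300, 1536 bases before it, which stood at -0.48 in cmt3 (adjusted p = 0.389) and lay in the lowest 25% on all arrays. For EXT4 the nearest such model was 67.1 kb away, and for ELP and LRX1 it was 240 and 258 kb away.

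LRX1, the partner of LRX2 in root hairs, was dim on every array. Its intensity was 37.9 and 36.1 in wild type, 37.4 and 43.2 in kyp, and 23.0 and 35.7 in cmt3. All 6 values lay in the lowest 25% of their array, as did those of the root hair genes RHD6, RSL4 and EXPA7. The cmt3 values were the lowest and the kyp values overlapped those of wild type. The differences were 0.12 ± 0.24 (SE) in kyp (adjusted p = 0.903, limma) and -0.37 ± 0.24 in cmt3 (adjusted p = 0.429), and neither passed. At such intensities a change in transcript can be understated. LRX1 spans 4070122 to 4072565 and is read by 3 probes, while each of the other members is read by 2.

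ELP lies close to LRX1, from 4089845 to 4090723, with 17279 bases and 5 gene models between them. It was bright and steady, with intensities of 28499 and 36242 in wild type, 36992 and 36157 in kyp, and 43479 and 48921 in cmt3. Both cmt3 arrays were above all others, while kyp overlapped wild type. The ELP level was 1.44-fold higher in cmt3 than in wild type, a log2 difference of 0.52 ± 0.16 (SE). It did not pass over all models (adjusted p = 0.164, limma). The unadjusted p was 0.025, and 2 of the 5 members and 23% of all models had one under 0.05 in this comparison. Across the alternatives the ELP difference stayed positive, from 0.35 to 0.69. The highest intensity on any array was 64963, and values near that end can be compressed.

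For the classical extensins EXT3 and EXT4, the gap between the kyp arrays was larger than any difference between genotype means. EXT3 intensity was 9310 and 9155 in wild type, 10934 and 22142 in kyp, and 12360 and 7882 in cmt3. Its wild type arrays differed by 1.02-fold, but its kyp arrays by 2.03-fold, and cmt3 lay on both sides of wild type. The log2 differences from wild type were 0.75 ± 0.42 (SE) in kyp (adjusted p = 0.608, limma) and 0.10 ± 0.42 in cmt3 (adjusted p = 0.916).

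EXT4 showed the widest gap between arrays of one genotype among the members. Its intensity was 839 and 553 in wild type, 391 and 1624 in kyp, and 960 and 378 in cmt3. The kyp arrays thus differed 4.16-fold, a gap exceeded by 0.929% of all gene models, and the cmt3 arrays 2.54-fold, a gap exceeded by 3.79%. Across all models the median gap between the arrays of a genotype was 1.13-fold to 1.15-fold. The genotypes overlapped, and the differences of 0.23 ± 0.86 (SE) in kyp (adjusted p = 0.955, limma) and -0.18 ± 0.86 in cmt3 (adjusted p = 0.926) were smaller than their errors. Within slide 1, EXT4 stood at -0.80 in kyp, the other sign (adjusted p = 0.738). EXT3 and EXT4 shared the order of their extreme arrays, with kyp replicate 2 highest, cmt3 replicate 1 next and cmt3 replicate 2 lowest. EXT3 spans 7453232 to 7454997 and EXT4 spans 28900195 to 28901777, which is 2.64 Mb from CMT3 on the side away from LRX2.

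**Figure D3:**
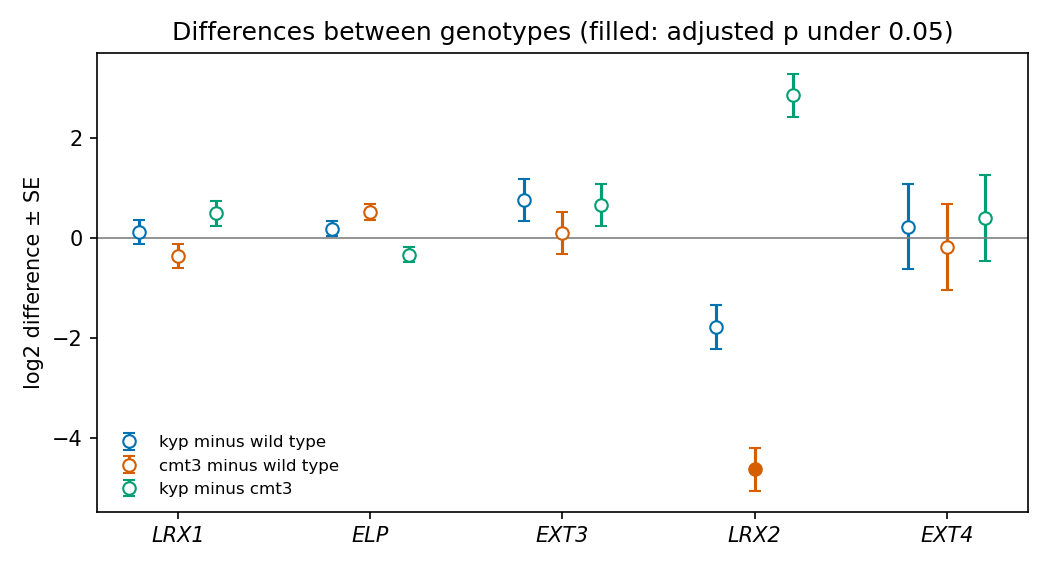
Log2 differences between genotypes for the 5 extensin genes, with limma's standard errors from 1 fit over 6 arrays. Filled points passed an adjusted p under 0.05, which LRX2 in cmt3 against wild type (-4.63) did and no other point did.

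As a group, the 5 extensin genes had a median log2 difference of 0.19 in kyp, -0.18 in cmt3 and 0.49 for kyp against cmt3. The medians over all gene models were 0.00, 0.03 and -0.03. In kyp 4 of 5 members were above wild type, and in cmt3 3 of 5 were below. Of the 30361 gene models, 15405 were above wild type in kyp and 13932 were below it in cmt3. Both mutants are compared with the same wild type arrays. When the slide entered the fit as a block, the cmt3 median was -0.92, which is then the value of EXT3. The medians also hung on single arrays. The cmt3 median was 0.42 without cmt3 replicate 2. It was 0.11 when wild type replicate 1 was left out and -0.40 when wild type replicate 2 was. The kyp median was 0.02 without kyp replicate 2 and 0.09 without wild type replicate 2. The median for kyp against cmt3 was 0.15 without kyp replicate 2, 1.17 without kyp replicate 1 and 0.98 without cmt3 replicate 1.

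RefSeq uses the word extensin for 23 further genes on the array, which the array files describe in other words. This comparison set was chosen after the files were seen. It holds 15 PERK genes, which encode receptor kinases with an extensin-like outer domain, 5 EXT genes, LRX3, EPR1 and an extensin-like gene. None was called in any comparison (limma), while 3 in kyp, 9 in cmt3 and 7 for kyp against cmt3 had an unadjusted p under 0.05, where 10.2%, 23% and 12.5% of all models did. Their medians were -0.01 in kyp and -0.03 in cmt3. By the rule of 2-fold difference without overlap, 4 of the 23 were lower and 1 was higher in cmt3, where 5.18% and 4.09% of all models were.

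The lower genes included EXT11, at 3046 and 1745 in wild type, 1084 and 509 in kyp, and 949 and 847 in cmt3. EXT11 was the 1 gene of the set that was 2-fold lower without overlap in kyp as well (-1.63, adjusted p = 0.414, limma), and its difference in cmt3 was -1.36 (adjusted p = 0.194). It was also over 2-fold lower on the 3 arrays of slide 2 than on those of slide 1, without overlap. EXT12 was at 104 and 288 in wild type, 250 and 1166 in kyp, and 76.3 and 64.7 in cmt3, with a high value on kyp replicate 2 alone. The other 2 were PERK9 (-1.30 in cmt3, adjusted p = 0.141) and PERK5 (-1.03, adjusted p = 0.12). PERK2 was the higher gene, at 1.65 in cmt3 (adjusted p = 0.102). For kyp against cmt3, the same rule gave 3 of the 23 higher in kyp (EXT12, PERK9 and PERK5) and 1 lower (PERK2). Of the 30361 gene models, 911 were higher in kyp and 735 lower in this way. EXT12 stood at 2.94 in that comparison (adjusted p = 0.37, limma), a larger difference than the 2.85 of LRX2. LRX3, a close relative of LRX2 that acts in shoots, gave intensities between 61722 and 64540 on all arrays. These lie at the upper end of the scale, where a difference can be compressed.

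Some of the other EXT genes separated the slides. EXT6 gave 7835, 7158 and 6866 on the 3 arrays of slide 1 and 2959, 3997 and 3994 on those of slide 2. EXT10 gave 9616, 10553 and 9602 on slide 1 and 5757, 6012 and 5730 on slide 2. For both genes kyp replicate 1 was near wild type and kyp replicate 2 was near or below cmt3. Among the 32 genes that the files describe as structural constituents of the cell wall, leaving out the 5 members, 13 were lower on all 3 arrays of slide 2, or 40.6%. Another 2 were higher on all 3. Over all gene models, 12.7% were lower and 15.9% higher on slide 2 in this way. In the RefSeq set 7 of 23 were lower and 1 was higher. This set shares 6 genes with the RefSeq set, and it too was chosen after the files were seen. For wild type and cmt3, slide and genotype cannot be told apart. None of the 32 was called (limma), and 10 had an unadjusted p under 0.05 in cmt3, of which 7 were lower. Over all models 23% did in cmt3, 10.1% of all being lower. Of the 32, AT1G23720 had the smallest p in cmt3, at -1.06 (adjusted p = 0.0801, limma), and EXT11 had it in kyp. AT1G23720 gave 799 and 806 in wild type, 712 and 684 in kyp, and 340 and 436 in cmt3. These values separate the genotypes in the order of LRX2, and the slides as well.

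**Figure D4:**
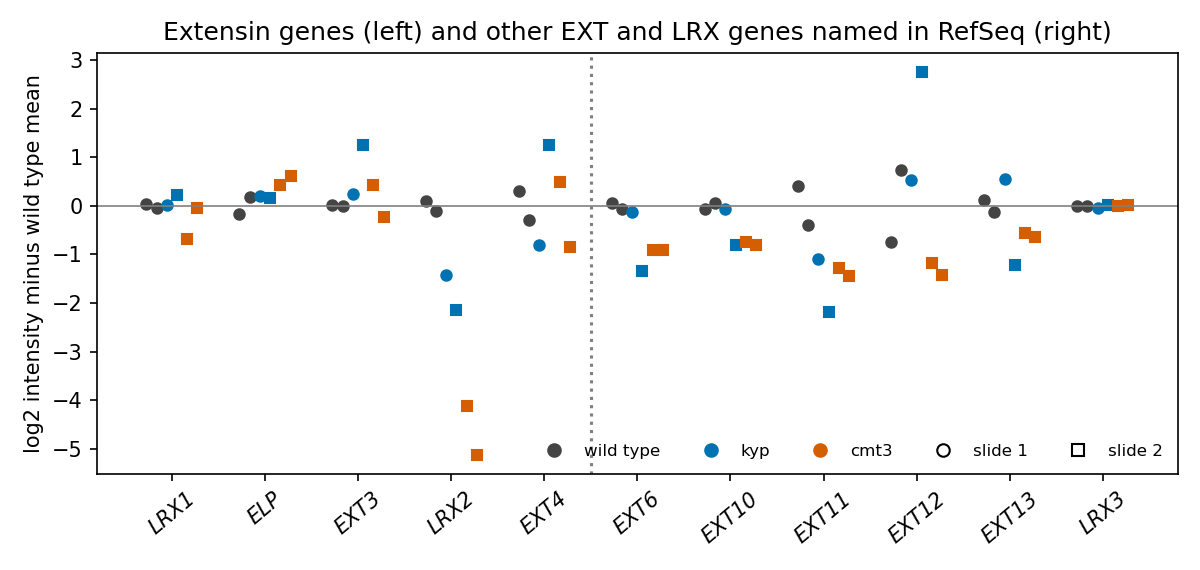
Log2 intensity on each array relative to the wild type mean of the gene, for the 5 extensin genes (left of the dotted line) and for 6 other EXT and LRX genes named in RefSeq (right). Colours give the genotype, circles slide 1 and squares slide 2. EXT6, EXT10, EXT11 and EXT13 are lower on all 3 arrays of slide 2, as is LRX2, EXT12 is high on kyp replicate 2, and LRX2 in cmt3 lies lowest in the plot.

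Genes that modify extensins or signal with them showed few differences. Prolyl 4-hydroxylases make the hydroxyproline of extensins, and none of 11 genes listed for them was called in kyp or cmt3 (limma), while 2 had an unadjusted p under 0.05 in each, where 10.2% and 23% of all models did. The smallest p in both was that of AT1G20270, annotated as an oxygenase that uses 2-oxoglutarate, at -0.63 in kyp (adjusted p = 0.365) and -0.93 in cmt3 (adjusted p = 0.087). The list had medians of -0.02 and -0.14, and 9 of its 11 genes were below wild type in cmt3, as were 13932 of the 30361 gene models. On slide 2, 4 of the 11 were lower on all 3 arrays without overlap and 0 were higher, beside 12.7% and 15.9% of all models. Slide and genotype cannot be told apart here for wild type and cmt3. Of 9 genes for the glycosylation of extensins, none was called, with 0 and 1 at an unadjusted p under 0.05 in kyp and cmt3, beside the same 10.2% and 23%. XEG113, an arabinosyltransferase, had the smallest p, at 0.30 in kyp (adjusted p = 0.498) and 0.42 in cmt3 (adjusted p = 0.148).

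Among 13 RALF peptides and receptors, none was called (limma), with 1 and 2 at an unadjusted p under 0.05 in kyp and cmt3, beside 10.2% and 23% of all models. The peptide RALF1 stood at -0.42 in kyp (adjusted p = 0.436), and LLG1, a co-receptor of FERONIA, at -0.42 in cmt3 (adjusted p = 0.13). The receptor kinase FERONIA gave intensities between 47771 and 54764. Of 10 wound and touch response genes, VSP1, a vegetative storage protein, was the 1 called lower in cmt3 (-2.38, adjusted p = 0.0456), where 0.181% of all models were, and it stood at -2.55 in kyp (adjusted p = 0.0815).

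In 2 other wall protein families, none of 35 expansins and none of 18 arabinogalactan proteins was called in any comparison (limma), while 8 and 3 had an unadjusted p under 0.05 in cmt3 and 7 and 1 in kyp. Over all models 23% did in cmt3 and 10.2% in kyp. Expansins loosen the wall, and their median was 0.20 in cmt3 and -0.02 in kyp. EXPA8 had the smallest p in cmt3 (1.001, adjusted p = 0.0791) and EXPA11 in kyp (0.62, adjusted p = 0.309). The arabinogalactan proteins had a median of -0.02 in each mutant, with AGP16 at 1.05 in cmt3 (adjusted p = 0.135) and AGP5 at 0.83 in kyp (adjusted p = 0.477).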

How the data were processed

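The intensities analysed are those deposited by the authors on a linear scale, RMA-normalized per the labels, 1 value per gene model summarised from 1 to 3 probes. The sources used here do not give RMA settings or software. The series' value table did not differ from these values. Members were found by the text of the per-array files. Coordinates are those of the files, and symbols were matched by locus to RefSeq TAIR10.1 names (29976 of 30361 models, 5 of 5 members). Intensities were transformed to log2 and fitted with limma 3.58.1 in R 4.3.3 over all 6 arrays without a block or filter (3 residual and 1.41 prior degrees of freedom). The threshold was 0.05 for p-values adjusted by Benjamini-Hochberg across all models. The fit was tested on simulated data with independent noise and no slide effect, so that test does not cover the slides. Precision is limited by the number of arrays. The members and lists were chosen with earlier results of these data known. Named were all 5 members and, from each list other than the cell type markers, up to 3 called genes or that with the smallest p in each mutant. Other genes were named after their values were seen. Alternatives were a trend or robust moderation, a filter on dim models, 2 normalizations, replicate and slide blocks, single slides and leaving out each array. Probe and protein sequences were not used here, and binding of probes to related extensin genes was not tested.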

Additional observations from a re-analysis of the deposited data

Results flagged for a closer look

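LRX1 was picked out because its values moved in opposite directions in the mutants, relative to the wild type mean. The mean difference was 0.12 in kyp and -0.37 in cmt3, with both arrays of each mutant on the same side. The difference between the mutants was 0.49 ± 0.24 (SE) and did not pass (adjusted p = 0.47, limma). The value of kyp replicate 1 (37.4) lay between those of the wild type arrays (36.1 and 37.9), and all values were in the lowest 25% of intensities. With 2 arrays a genotype, no array could be tested as an outlier.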

How the results depend on the processing

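LRX2 was lower in cmt3 than in wild type under all 14 alternatives run, with log2 differences of -3.90 to -5.13. The count of called members fell from 1 to 0 with the slide as a block, under robust moderation, with the replicate number as a block and without each 1 of the 6 arrays (0 to 0 called), fits that leave fewer residual degrees of freedom except for robust moderation. With the replicate block LRX2 had an adjusted p of 0.0525. Over all gene models, 225 were called in cmt3, against 2272 with an intensity trend, 492 without the dimmest 25% of models, 1266 at an adjusted p under 0.10, 69 with the replicate block, 0 with the slide block and 32 to 84 without 1 array. In kyp 32 were called, against 85, 63 and 102 under the first 3 of these and 0 under both blocks, within slide 1 and without any 1 array. For kyp against cmt3 the counts were 9, then 24, 17 and 19, then 0. Over all gene models, the deviations of arrays with the same replicate number correlated at -0.12 to 0.00. These values show no pairing shared across the models, and a pairing with a small effect was not tested. The median of the members in cmt3 moved to -0.92 with the slide as a block, and without 1 array it ran from -0.40 to 0.42, with its sign turned without cmt3 replicate 2 and without wild type replicate 1 (0.11). The count of members 2-fold apart without overlap was 1 in each comparison. Without 1 array it was 1 to 3 in kyp against wild type and 1 to 3 for kyp against cmt3, with 3 without kyp replicate 1 in both and 2 without cmt3 replicate 1 in the second. Signs turned for uncalled differences of EXT3 and EXT4. EXT4 in kyp ran from -0.80 to 1.25 without 1 mutant array. It was -0.80 with the slide as a block, within slide 1 and without kyp replicate 2, and -0.07 without wild type replicate 2. EXT4 in cmt3 was 0.12 without wild type replicate 1 and 0.50 without cmt3 replicate 2 (-0.85 without cmt3 replicate 1, -2.23 with the slide as a block), and for kyp against cmt3 it was -0.62 without kyp replicate 2 (1.43 without kyp replicate 1) and -0.27 without cmt3 replicate 2. EXT3 in cmt3 was -0.92 with the slide as a block and -0.23 without cmt3 replicate 1 (0.42 without cmt3 replicate 2). The cause of these changes was not tested. LRX1 drops out under the filter on dim models, and a comparison of cmt3 with wild type within 1 slide could not be run.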

Other observations

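JAZ10, a repressor gene of jasmonate signalling from the wound and touch list, gave the same order of arrays as LRX2 and is named after its values were seen. Its intensity was 16233 and 11606 in wild type, 7109 and 4537 in kyp, and 1159 and 272 in cmt3. Like LRX2, JAZ10 thus also separated the slides, and for wild type and cmt3 slide and genotype cannot be told apart. Of the 10 genes of this list, 3 were lower and 0 higher on all 3 arrays of slide 2, beside 12.7% and 15.9% of all models. The share of all models with this order of arrays was not counted. The log2 difference of JAZ10 from wild type was -1.27 in kyp (adjusted p = 0.634, limma) and -4.61 in cmt3 (adjusted p = 0.0921), so neither passed. VSP1, from the same list, was instead low in both mutants, with 1908 and 1369 in wild type, 252 and 301 in kyp, and 349 and 277 in cmt3.

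Near EXT3, the gene models AT1G21320 and AT1G21326 were 2-fold higher in cmt3 without overlap, at 1.30 (adjusted p = 0.163, limma) and 1.66 (adjusted p = 0.176), beside 4.09% of all models. AT1G21326 was also 2-fold higher without overlap in kyp, at 1.15 (adjusted p = 0.555), beside 632 of the 30361 gene models. Both were highest on cmt3 replicate 1 and next on kyp replicate 2. EXT3 itself was highest on kyp replicate 2 and next on cmt3 replicate 1, so the same arrays stood highest, in the other order.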
